A study of Mus musculus with 20 samples.

Results

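The genes of fatty acid uptake and mitochondrial beta-oxidation were examined in RNA-seq of the condylar head of the mouse temporomandibular joint (TMJ), the joint between lower jaw and skull. They are 34 genes chosen by symbol for their role in the route, with earlier results of these data known. The count table holds 54532 genes, and all 34 passed the filter on low counts that left 15984 genes tested. The series holds 8 libraries labelled Control and 12 labelled LOXL2_KO. Every animal, Control included, carried *Loxl2* fl/fl and the tamoxifen-inducible Acan-CreERT2, in which the aggrecan promoter drives Cre, so that deletion is aimed at aggrecan-expressing cells only. *Loxl2* encodes a lysyl oxidase, a copper-dependent enzyme of matrix crosslinking. Mice of both sexes were 6 months old at the first injection and received vehicle (Control) or tamoxifen at 75 mg/kg (LOXL2_KO), on 5 consecutive days and then monthly, and joints were taken after 4 months with part of the subchondral bone. Tamoxifen and the deletion cannot be told apart in this design.

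Long-chain fatty acids reach cells from lipoproteins or albumin, cross the membrane with the help of transport and binding proteins, and are joined to coenzyme A by acyl-CoA synthetases. The carnitine shuttle carries them into mitochondria, where repeated rounds of dehydrogenation, hydration, a second dehydrogenation and thiolysis release acetyl-CoA, with electrons passed on through the electron transfer flavoprotein. Oxidative skeletal muscle, heart, liver and brown fat are known for high expression of this route, whereas chondrocytes of adult cartilage rely largely on glycolysis.

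Several facts about the libraries bear on every direction given below. Library totals ran from 11153820 to 27045668 counts. The mitochondrial genome gave 15.2% to 23.1% of them in Control and 9.06% to 18.3% in LOXL2_KO, and its part in the results was not tested. *Loxl2* itself was not lower in the libraries labelled LOXL2_KO, with means of 64.5 CPM (counts per 1000000 of the TMM-scaled library size; SD 30.9, n = 8) for Control and 101 CPM (SD 26.9, n = 12) for LOXL2_KO, and an adjusted p of 0.101 by edgeR for a log2 fold change of 0.64 ± 0.28 (SE). The count covers every exon of the gene, and the exons between the loxP sites are not given in the sources used here, so "LOXL2_KO" below means the libraries labelled so. Libraries Control 8, Control 6 and LOXL2_KO 5 stood apart by their low level of 8 tested chondrocyte markers, with a mean of 1.03, 3.15 and 3.43 log2 CPM, whereas the lowest of the other 17 libraries had 4.71. In Control 8, *Col2a1*, the main collagen of cartilage, was at 1.68 CPM and *Acan* at 2.22 CPM. In bulk tissue, fewer cells of a type and less RNA per cell cannot be told apart.

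Most members were lower in LOXL2_KO. Of the 34 genes, 25 fell, 2 rose (*Acsl5* and *Cpt1a*) and 7 did not pass the test (*Acsl3*, *Acsl4*, *Acad10*, *Acaa1a*, *Eci1*, *Etfb* and *Ppara*). Across all tested genes, 23.0% were called in either direction, 11% as lower and 12.0% as higher, at an edgeR adjusted p under 0.05. The median log2 fold change of the members was -0.62 and that of all tested genes -0.02. Scaled by library totals alone, the median of all genes was 0.12, and 21 members were called lower and 2 higher. Of all genes, 3037 were called in that fit, 72.0% of them higher, against 52.2% of the calls with TMM. In that scaling *Eci2* (log2 fold change -0.12, adjusted p = 0.292 by edgeR), *Acads* (-0.25, 0.0735), *Cpt1b* (-0.60, 0.0704) and *Ppargc1a* (-0.55, 0.0806) were not called. The DESeq2 Wald test, in place of edgeR, called 27 members lower and 2 higher, and 4219 of all genes. Those lower then included *Acad10* (adjusted p = 0.0422 by DESeq2) and *Etfb* (0.0464). The decreases were of like size: 19 of the 25 called decreases lay between -0.5 and -0.75 on the log2 scale, and the full range ran from -0.28 for *Eci2* to -1.19 for *Ucp3*. In 16 members every one of the 12 LOXL2_KO libraries lay below the Control median, a count that was not made over all tested genes. The ranges of the groups nevertheless overlapped in every member, so that 0 of 34 were separated without overlap, while 0.0876% of all tested genes were lower and 0.213% higher without overlap.

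**Figure D1:**
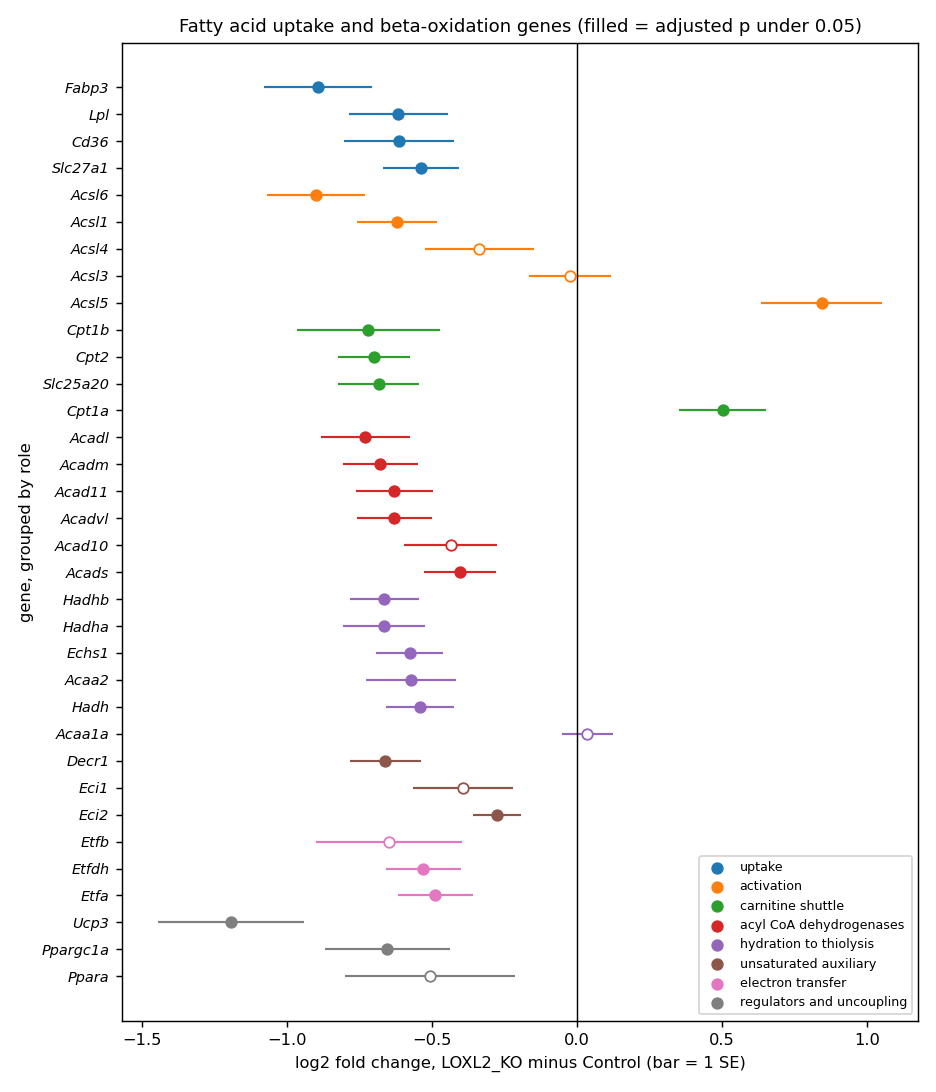
Log2 fold change of the 34 members, LOXL2_KO minus Control, with bars of 1 SE from the edgeR fit, ordered by role on the vertical axis; filled points have an adjusted p under 0.05. The 25 called decreases lie left of 0, from -0.28 to -1.19, and *Acsl5* (0.84) and *Cpt1a* (0.50) lie to the right.

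Marker genes of other tissues moved with the groups. The skeletal muscle list (20 genes, mostly contractile and calcium-handling, with creatine kinase *Ckm* and myoglobin *Mb*) differed by -0.57 in mean log2 CPM, LOXL2_KO minus Control (exact permutation p = 0.0155, adjusted p = 0.0428 over 9 lists, two-sided). Its summed level was 64278 to 219839 CPM in Control and 45279 to 115725 CPM in LOXL2_KO, 8 of its 20 genes fell and 0 rose by edgeR (0 also at an unadjusted p under 0.05 and by DESeq2), and no gene of this or any other list was at 0 in every library. With each library left out in turn, *Pvalb* and *Casq1* were called in all 20 fits. *Ckm*, *Actn3* and *Atp2a1* were called in 12 fits each, *Myl1* in 8, *Mylpf* in 7 and *Ryr1* in 5. Control 8, low in chondrocyte markers, had the highest mean of the muscle list (10.8 log2 CPM). The list was not compared without that library. With this list as a covariate, 8 members remained called, all lower (*Fabp3*, *Acsl6*, *Cpt2*, *Acadvl*, *Acadm*, *Hadhb*, *Decr1* and *Ucp3*), 31 of 34 estimates stayed below 0, and the median was -0.43. Of all tested genes, 562 were called in that fit, against 3673 without the covariate.

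The osteoclast list, the macrophage list and the osteoblast and osteocyte list were higher in LOXL2_KO. All 8 osteoclast genes rose, with a summed level of 88.9 to 999.6 CPM in Control and 471 to 5638 CPM in LOXL2_KO and a mean difference of 2.54 log2 CPM (exact permutation adjusted p = 0.00121). With the osteoclast list as a covariate, no member and no gene at all was called by edgeR, while 9 members and 1262 genes had an unadjusted p under 0.05. The members' median was -0.35 in that fit, with 30 of 34 below 0. The macrophage list differed by 1.26 (exact permutation adjusted p = 0.00121; 7 of 8 genes rose; summed level 50.9 to 246 CPM in Control and 147 to 584 CPM in LOXL2_KO) and the osteoblast and osteocyte list by 1.37 (exact permutation adjusted p = 0.0428; 4 of 8 genes rose; summed level 164 to 1778 CPM and 279 to 3767 CPM). Their part in the members' decreases was not tested. The adipocyte list differed by -0.19 (exact permutation adjusted p = 0.747). With that list as a covariate, 25 members were called lower and 2 higher, and 3418 of all tested genes were called. The endothelial list differed by -0.11 (exact permutation adjusted p = 0.477), the chondrocyte list by 0.87 (adjusted p = 0.344), the neutrophil list by 1.82 (adjusted p = 0.0726) and the erythroid list by -0.96 (adjusted p = 0.0942).

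**Figure D2:**
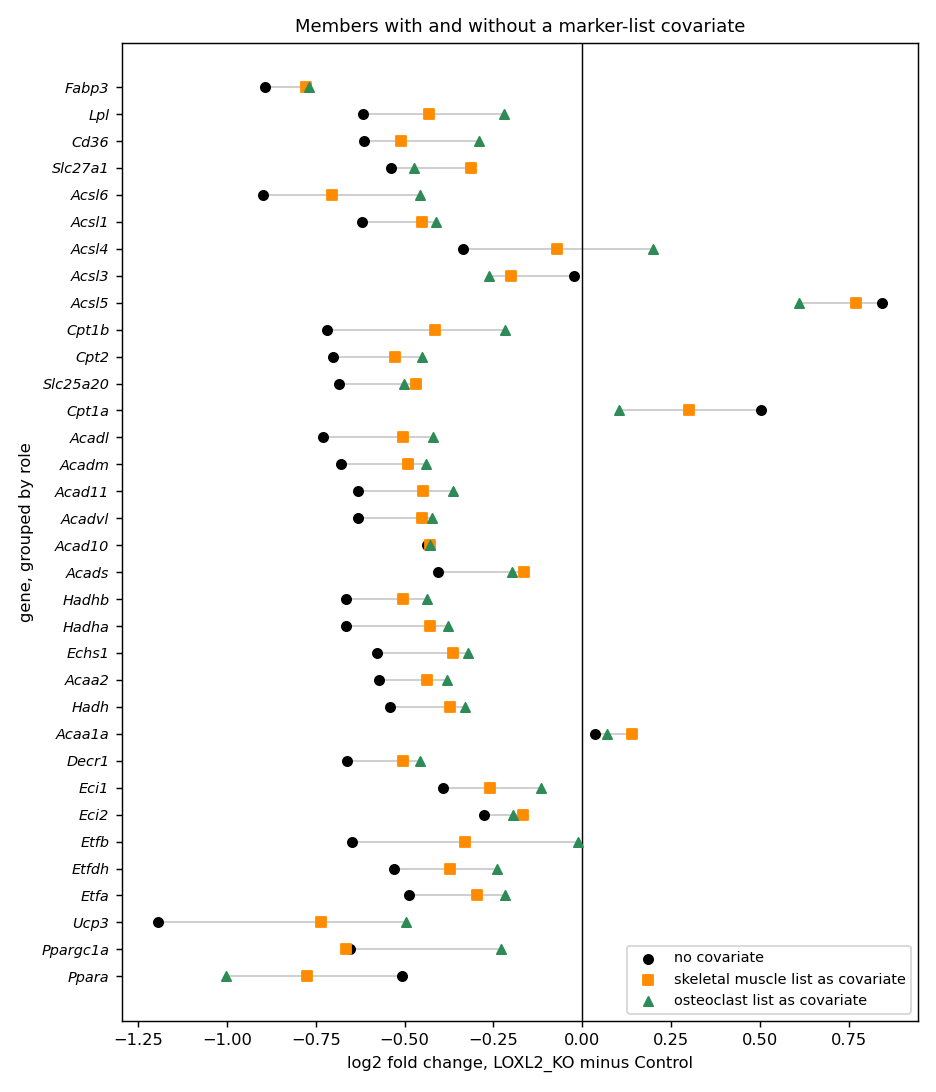
Log2 fold change of each member, LOXL2_KO minus Control, with no covariate (circles), with the skeletal muscle list (squares) and with the osteoclast list (triangles) as a covariate; the vertical axis lists the genes by role. Most points move toward 0 with either list. *Ppara*, *Acsl3* and *Acaa1a* move away from 0 under both lists and *Ppargc1a* slightly under the muscle list (-0.66 in both fits), while *Acsl4* changes side under the osteoclast list (0.20).

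All 4 uptake genes fell. *Fabp3*, the fatty acid binding protein of heart and skeletal muscle, had the highest Control level per transcript length of the 34 members (834 CPM per kb of its principal transcript). It ranged over 461, 623 and 1168 CPM (lowest, median and highest) in Control and 199, 396 and 498 CPM in LOXL2_KO. All 12 LOXL2_KO libraries lay below the Control median, 10 of them below every Control library, and the log2 fold change was -0.89 (± 0.19 SE, adjusted p = 0.00296 by edgeR). *Lpl*, lipoprotein lipase, which frees fatty acids from circulating triglycerides, came next in level per length (280 CPM per kb in Control). Its lowest, median and highest values were 974, 1139 and 1395 CPM in Control and 438, 660 and 1361 CPM in LOXL2_KO. The top of the LOXL2_KO range was LOXL2_KO 5, the only one above the Control median, and 10 of 12 lay below every Control library (log2 fold change -0.62 ± 0.17 SE, adjusted p = 0.0145 by edgeR). *Cd36*, a membrane fatty acid translocase also abundant on endothelium, macrophages and fat cells, fell from 378 ± 99.6 CPM in Control (SD, n = 8) to 247 ± 80.1 CPM in LOXL2_KO (SD, n = 12), with a log2 fold change of -0.62 (adjusted p = 0.0239 by edgeR). *Slc27a1*, fatty acid transport protein 1, fell from 227 CPM ± 35.3 to 156 CPM ± 37.3 (log2 fold change -0.54, adjusted p = 0.00715 by edgeR).

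The 5 long-chain acyl-CoA synthetases, which activate fatty acids and differ in tissue and organelle, split into 2 that fell, 1 that rose and 2 that did not pass the test. *Acsl1*, the main form of fat, heart and skeletal muscle, had 287, 354 and 435 CPM (lowest, median and highest) in Control and 154, 209 and 341 CPM in LOXL2_KO, with a log2 fold change of -0.62 (± 0.14 SE, adjusted p = 0.00428 by edgeR). *Acsl6*, known for its expression in brain and muscle, had 19.9, 32.3 and 54.6 CPM in Control and 12.7, 15.9 and 26.3 CPM in LOXL2_KO. All 12 LOXL2_KO libraries were below the Control median in both genes, and *Acsl6* fell by 0.90 on the log2 scale (± 0.17 SE, adjusted p = 0.00183 by edgeR). *Acsl5*, a form of mitochondria and endoplasmic reticulum best known from intestine and liver, rose. Its lowest, median and highest values were 8.27, 16.8 and 20.0 CPM in Control and 15.1, 26.2 and 63.2 CPM in LOXL2_KO, and 11 of 12 LOXL2_KO libraries lay above every Control library (log2 fold change 0.84 ± 0.21 SE, adjusted p = 0.00758 by edgeR). LOXL2_KO 4 held the top value, and the log2 fold change stayed between 0.67 and 0.91 when each library was left out in turn. *Zdhhc6*, which shares 8.31% of the exon bases of *Acsl5* on the opposite strand, had a log2 fold change of 0.01. *Acsl3* (13.8 CPM ± 3.49 and 13.6 CPM ± 2.66) and *Acsl4* (26.9 CPM ± 13.3 and 21.3 CPM ± 3.98) did not pass the test, with log2 fold changes of -0.02 (SE 0.14) and -0.34 (SE 0.19). Control 8 had the highest *Acsl4* value at 57.3 CPM, and without that library the log2 fold change was -0.07.

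RefSeq promoter windows, from 250 bases before to 50 after the transcript start (GRCm38.p6), were found for 30 of the 34 members, as 35 windows (none was matched for *Lpl*, *Cpt1b*, *Acaa2* and *Decr1*). They were searched on both strands for a direct repeat of AGGTCA spaced by 1 base of any kind, a binding element of PPAR receptors, for TCAAGGTCA, the element of estrogen-related receptors, and for the shorter AAGGTCA, which lies within the latter. The first was in 0 of 35 member windows and 0.0396% of all 32851 windows, and the second in 1 (*Acsl6*) and 0.423%. The third was in 2 windows, 5.71% of the members' windows and 4.72% of all. These shares are close for the short element, and a match is a description of letters only. The windows of *Acsl6*, chr11:54303574-54303873 (plus strand), and *Acadm*, chr3:153944594-153944893 (minus strand), are printed because they hold those matches. The capitals mark them, read as TGACCTT or TGACCTTGA because each lies on the strand opposite to the one printed, 5′ to 3′.
Acsl6: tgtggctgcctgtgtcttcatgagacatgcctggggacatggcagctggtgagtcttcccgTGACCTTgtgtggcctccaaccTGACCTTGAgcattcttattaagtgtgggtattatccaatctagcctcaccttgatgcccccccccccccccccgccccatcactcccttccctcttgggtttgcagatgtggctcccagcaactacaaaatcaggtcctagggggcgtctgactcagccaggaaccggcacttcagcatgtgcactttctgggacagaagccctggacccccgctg
Acadm: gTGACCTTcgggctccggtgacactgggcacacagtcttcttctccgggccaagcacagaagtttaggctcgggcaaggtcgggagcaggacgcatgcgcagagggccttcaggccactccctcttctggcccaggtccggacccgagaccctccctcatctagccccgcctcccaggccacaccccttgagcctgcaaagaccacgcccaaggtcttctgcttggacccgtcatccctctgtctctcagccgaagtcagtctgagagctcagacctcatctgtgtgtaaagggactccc

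**Figure D3:**
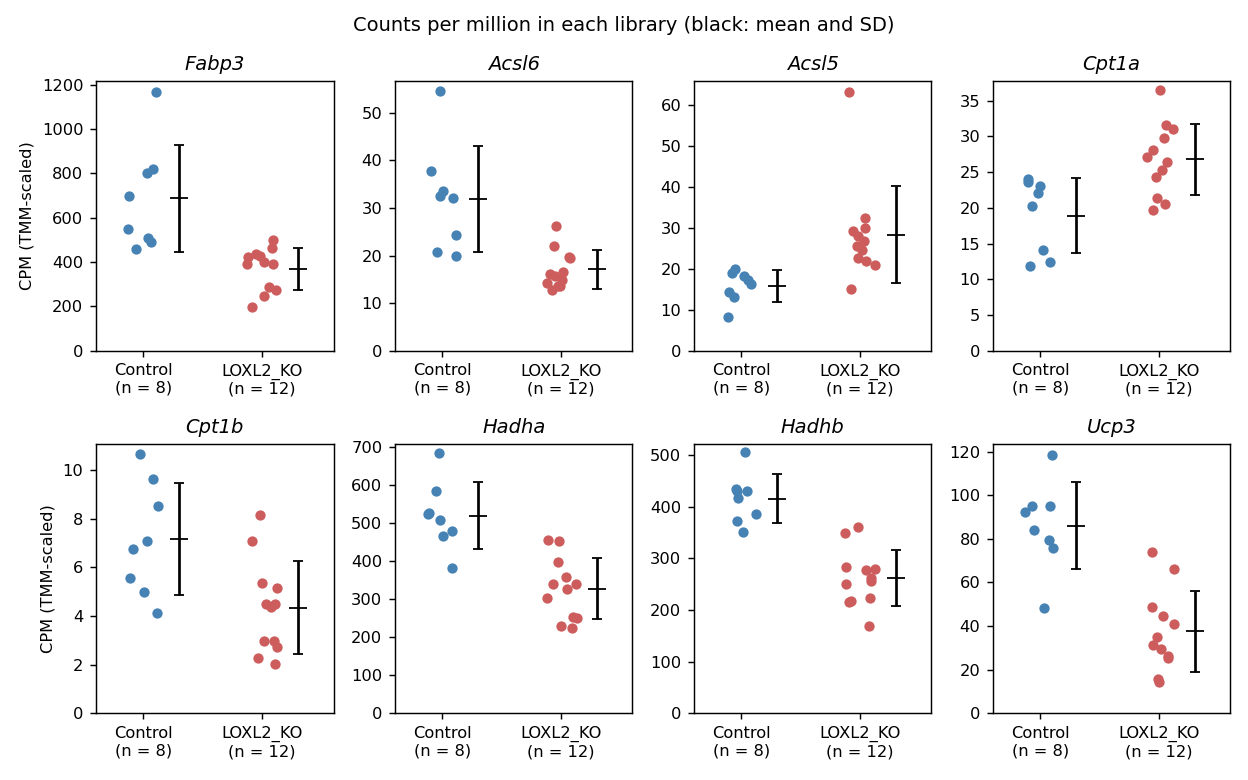
CPM of 8 members in each library, with Control in blue (n = 8), LOXL2_KO in red (n = 12) and the mean and SD in black; every vertical axis starts at 0. *Acsl5* and *Cpt1a* are higher in LOXL2_KO, the other 6 are lower, and the ranges of the groups overlap in each.

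In the carnitine shuttle, the liver-type and muscle-type forms of the outer-membrane enzyme went opposite ways. *Cpt1a*, carnitine palmitoyltransferase 1A, the form of liver and many other tissues, had 11.9, 21.2 and 24.0 CPM (lowest, median and highest) in Control and 19.8, 26.8 and 36.5 CPM in LOXL2_KO. It rose by 0.50 on the log2 scale (± 0.15 SE, adjusted p = 0.0205 by edgeR), and 9 of 12 LOXL2_KO libraries were above every Control library. *Cpt1b*, the form of heart and skeletal muscle, had 4.13, 6.91 and 10.6 CPM in Control and 2.05, 4.43 and 8.16 CPM in LOXL2_KO. It fell by 0.72 (± 0.25 SE, adjusted p = 0.0399 by edgeR), a call kept in 9 of 20 leave-one-out fits, each without a single library. The *Cpt1b* level is uncertain, since *Gm44502* covers 81.4% of its exon bases on the same strand and was listed at 0 in every library, and the handling of shared reads is not given in the sources used here. *Slc25a20*, the carnitine-acylcarnitine carrier of the inner membrane, fell from 72.4 ± 14 CPM in Control (SD, n = 8) to 45.1 ± 11 CPM in LOXL2_KO (SD, n = 12; log2 fold change -0.68, adjusted p = 0.00261 by edgeR). *Cpt2*, which restores the acyl-CoA inside mitochondria, had 76.8, 96.9 and 140 CPM in Control and 42.7, 58.5 and 87.2 CPM in LOXL2_KO. LOXL2_KO 5 alone reached into the Control range, and the log2 fold change was -0.70 (± 0.12 SE, adjusted p = 0.00136 by edgeR), the smallest adjusted p among the members.

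Of the 6 genes of the acyl-CoA dehydrogenase family, 5 fell. The enzymes of *Acadvl*, *Acadl*, *Acadm* and *Acads* carry out the first step of each round on very long, long, medium and short chains. *Acadl* had 281, 400 and 533 CPM (lowest, median and highest) in Control and 141, 241 and 346 CPM in LOXL2_KO, a log2 fold change of -0.73 (± 0.15 SE, adjusted p = 0.00322 by edgeR). *Acadm* had 263, 362 and 456 CPM in Control and 158, 218 and 317 CPM in LOXL2_KO (log2 fold change -0.68 ± 0.13 SE, adjusted p = 0.0019 by edgeR). In both genes, as in *Acadvl* (220 CPM ± 33.4 to 142 CPM ± 33.5, log2 fold change -0.63), all 12 LOXL2_KO libraries were below the Control median. *Acads* fell less, from 93.3 CPM ± 16.6 to 70.4 CPM ± 14.4 (log2 fold change -0.41 ± 0.12 SE, adjusted p = 0.0231 by edgeR), and its estimate with the muscle list as a covariate was -0.16 (adjusted p = 0.377 by edgeR). Whether the change differed between chain lengths was not tested. *Acad11* fell by 0.63 (53.0 CPM ± 11.6 to 34.2 CPM ± 7.34). *Acad10* (14.6 CPM ± 2.54 and 10.8 CPM ± 3.11) had a log2 fold change of -0.44 (± 0.16 SE, adjusted p = 0.0523 by edgeR).

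Of the 6 genes of the later steps, 5 fell. *Hadha* and *Hadhb* encode the alpha and beta subunits of the mitochondrial trifunctional protein, which performs hydration, dehydrogenation and thiolysis of long chains. *Hadha* had 382, 514 and 684 CPM (lowest, median and highest) in Control and 223, 334 and 454 CPM in LOXL2_KO, and *Hadhb* had 350, 423 and 505 CPM and 169, 260 and 362 CPM. In each gene 7 of 8 Control libraries lay above every LOXL2_KO library. The log2 fold changes of the subunits were -0.66 (± 0.14 SE, adjusted p = 0.00336 by edgeR) and -0.67 (± 0.12 SE, adjusted p = 0.00144 by edgeR). The genes lie head to head on chromosome 5 with 272 bases between their RefSeq starts, so their promoter windows share 228 bases. The *Hadhb* window, chr5:30155003-30155302 (GRCm38.p6, plus strand), is printed for this reason, with the shared bases (30155003 to 30155230) in capitals.
Hadhb: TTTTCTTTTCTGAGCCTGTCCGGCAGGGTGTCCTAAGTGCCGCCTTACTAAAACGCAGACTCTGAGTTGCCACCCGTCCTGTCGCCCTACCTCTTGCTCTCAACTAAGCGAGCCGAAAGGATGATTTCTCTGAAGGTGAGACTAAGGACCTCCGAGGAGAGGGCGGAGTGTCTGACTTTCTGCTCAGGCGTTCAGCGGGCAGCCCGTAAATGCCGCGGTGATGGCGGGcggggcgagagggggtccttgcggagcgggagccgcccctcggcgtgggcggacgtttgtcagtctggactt

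The matrix enzymes for shorter chains were also lower. *Hadh*, the dehydrogenase of medium and short chains, fell from 208 ± 38.8 CPM in Control (SD, n = 8) to 143 ± 26.3 CPM in LOXL2_KO (SD, n = 12; log2 fold change -0.54, adjusted p = 0.00397 by edgeR). *Echs1*, the short-chain hydratase, fell from 156 CPM ± 26.5 to 105 CPM ± 19.4 (log2 fold change -0.58, adjusted p = 0.00244 by edgeR). *Acaa2*, the mitochondrial thiolase, fell from 248 CPM ± 61.6 to 167 CPM ± 41.3 (log2 fold change -0.57, adjusted p = 0.0122 by edgeR). *Acaa1a*, a thiolase of peroxisomes, had 87.8 CPM ± 7.87 and 90 CPM ± 14.2 and a log2 fold change of 0.04 (± 0.09 SE, adjusted p = 0.802 by edgeR). It had the smallest Control SD relative to its mean among the 6 genes of these steps. For unsaturated chains, *Decr1*, the mitochondrial dienoyl-CoA reductase, fell from 130 CPM ± 19.1 to 82.2 CPM ± 17.6 (log2 fold change -0.66, adjusted p = 0.00163 by edgeR), and *Eci2*, an enoyl-CoA isomerase, fell by 0.28 (60.2 CPM ± 8.29 to 49.7 CPM ± 5.53, adjusted p = 0.0224 by edgeR), a call lost under library totals. *Eci1*, the mitochondrial isomerase, had 138 CPM ± 40.8 and 105 CPM ± 28.7 and did not pass the test (log2 fold change -0.39 ± 0.17 SE, adjusted p = 0.101 by edgeR).

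Electron transfer flavoprotein takes electrons from the dehydrogenases and its oxidoreductase hands them to ubiquinone. *Etfa*, the alpha subunit, fell from 225 ± 38.2 CPM in Control (SD, n = 8) to 160 ± 35.8 CPM in LOXL2_KO (SD, n = 12; log2 fold change -0.49, adjusted p = 0.0105 by edgeR), and *Etfdh*, the oxidoreductase, from 149 CPM ± 19.3 to 103 CPM ± 25.7 (log2 fold change -0.53, adjusted p = 0.00729 by edgeR). *Etfb*, the beta subunit, had 35.0 CPM ± 13.2 and 22.3 CPM ± 10.5 and a log2 fold change of -0.65 with a wider error (± 0.25 SE, adjusted p = 0.0663 by edgeR). Its Control level per length was 39.2 CPM per kb, against 161 for its partner *Etfa*. Here too the level is uncertain, as *Gm45233* covers 53.0% of the *Etfb* exon bases on the same strand. In all, 14 members share exon bases with another annotated gene, 4 of them on the same strand. On the opposite strand, *Ackr4* (4.89% of the *Acad11* exon bases) rose by 1.38 and *Myd88* (6.57% of those of *Acaa1a*) by 0.61. *Gm12224* (2.04% of those of *Acsl6*) fell by 1.01. *Dvl2*, on 42.9% of the *Acadvl* exon bases, had a log2 fold change of 0.14 and did not pass the test. The part of such neighbours in the members' counts was not tested.

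Among the regulators, *Ppara*, a fatty acid-sensing nuclear receptor, had the lowest Control level per length of the 34 (1.79 CPM per kb) and did not pass the test. Its lowest, median and highest values were 2.80, 5.32 and 11 CPM in Control and 1.54, 4.56 and 7.04 CPM in LOXL2_KO (log2 fold change -0.51 ± 0.29 SE, adjusted p = 0.214 by edgeR). *Ppargc1a*, a coactivator that promotes mitochondrial biogenesis, had 22.7, 42.5 and 72.5 CPM in Control and 15.4, 25.8 and 48.4 CPM in LOXL2_KO. It fell by 0.66 (± 0.22 SE, adjusted p = 0.0327 by edgeR), a call kept in 12 of 20 leave-one-out fits. *Ucp3*, an uncoupling protein of skeletal muscle and brown fat mitochondria, showed the largest decrease of the 34 members by log2 fold change. It had 48.5, 88.1 and 118 CPM in Control and 14.2, 33.1 and 74.0 CPM in LOXL2_KO. All Control libraries but Control 1 lay above every LOXL2_KO library, and the log2 fold change was -1.19 (± 0.25 SE, adjusted p = 0.00312 by edgeR), or -0.73 (adjusted p = 0.0453 by edgeR) with the muscle list as a covariate.

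The members tended to be high or low in the same libraries. Control 6 held the highest Control value of 21 members and Control 1 the lowest of 18. Within LOXL2_KO, replicate 5 was highest for 21 members and replicate 8 lowest for 20. The mitochondrial genome gave 23.1% of the counts in Control 6, 17.6% in Control 1, 16.2% in LOXL2_KO 5 and 9.06% in LOXL2_KO 8. This share did not follow the members in every library. LOXL2_KO 10 had 16.3% with a members' mean of 5.74 log2 CPM, against a mean of 6.54 in LOXL2_KO 5. Control 6 and LOXL2_KO 5 were also among the 3 libraries with low chondrocyte markers. Control 8, the lowest of those 3, held the highest Control value of 4 members and the lowest of 4. With those 3 libraries left out, an alternative added after the data had been seen, 21 members were called lower and 2 higher and the median was -0.62. Over all genes tested in that fit, 2336 were called. *Cpt1b*, *Acads*, *Eci2* and *Ppargc1a* were then no longer called (adjusted p = 0.0586, 0.0698, 0.0856 and 0.0518 by edgeR). Leaving out a single library in turn, 20 of the 25 decreases and both increases were called in all 20 fits, and the number called lower was smallest, at 20, without Control 6. *Cd36* was not called without Control 6 (log2 fold change -0.52, adjusted p = 0.0628 by edgeR) or Control 7 (-0.54, 0.0541). *Acads* was not called without Control 4 (-0.36, adjusted p = 0.0583 by edgeR), Control 6 (-0.35, 0.0594) or Control 8 (-0.37, 0.0566), nor *Eci2* without Control 6 (-0.22, 0.0666) or Control 8 (-0.24, 0.0628). The calls of *Cpt1b* and *Ppargc1a* were the least stable. *Cpt1b* lost its call without any of Control 3, 5, 6, 7 and 8 or LOXL2_KO 1, 2, 6, 7, 8 and 10 (adjusted p up to 0.0969 by edgeR, without Control 6). *Ppargc1a* lost it without any of Control 1, 3, 6 and 8 or LOXL2_KO 2, 4, 6 and 8 (up to 0.0804, without Control 1). Of the members not called, *Acad10* was called without Control 5 or LOXL2_KO 2, 11 or 12 (lowest adjusted p 0.019 by edgeR, without LOXL2_KO 12), *Etfb* without Control 1 or LOXL2_KO 5 or 11 (lowest 0.0187, without LOXL2_KO 11) and *Eci1* without LOXL2_KO 5 (0.0478).

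**Figure D4:**
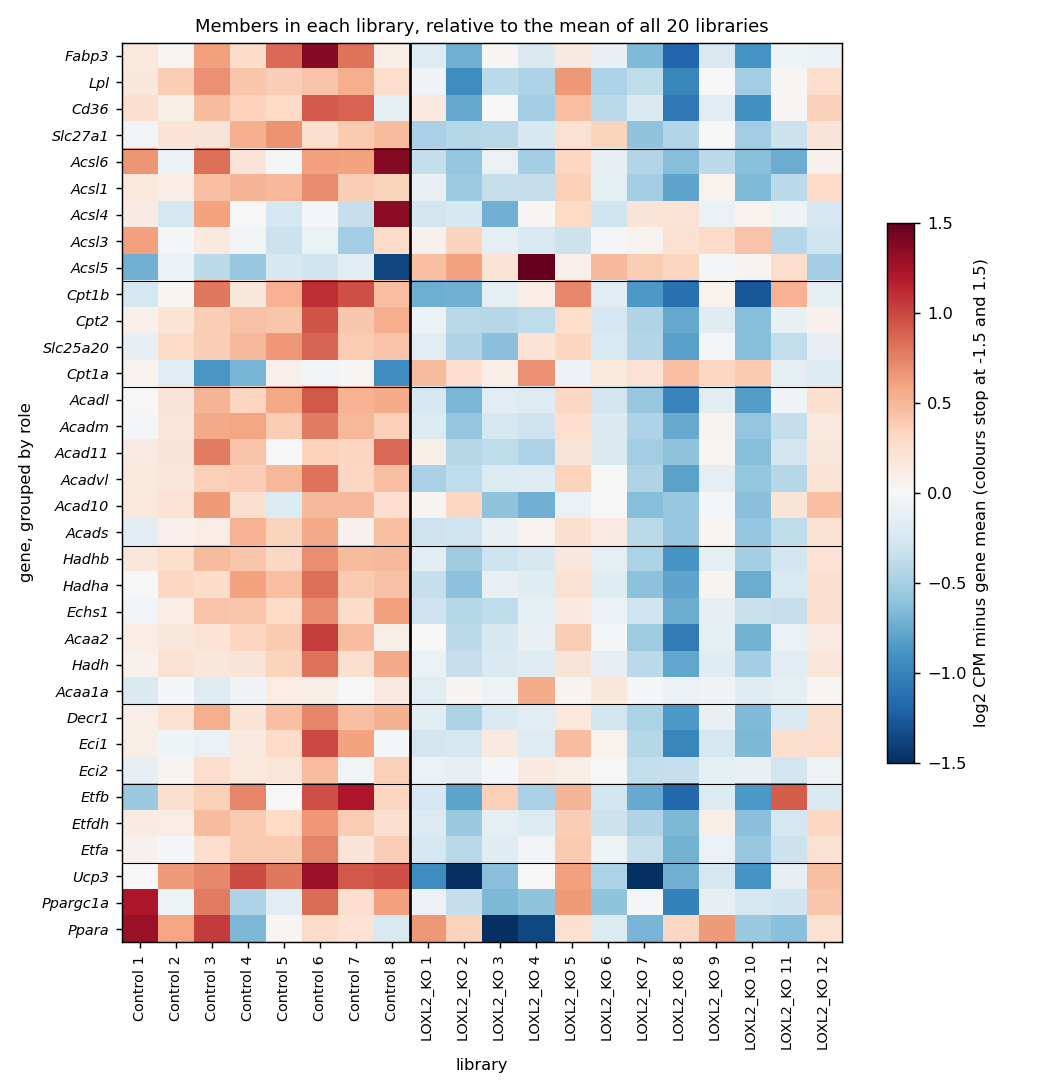
Log2 CPM of each member in each library minus the gene's mean over all 20 libraries, with genes by role on the vertical axis, libraries on the horizontal axis and a vertical line between Control and LOXL2_KO; colours stop at -1.5 and 1.5. Control columns are mostly red and LOXL2_KO columns mostly blue, apart from *Acsl5*, *Cpt1a*, *Acsl3* and *Acaa1a*, and LOXL2_KO 5 and LOXL2_KO 12 resemble Control. Control 1, partly blue, has the lowest mean of the members among Control libraries (6.37 log2 CPM, against 6.38 in LOXL2_KO 12).

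Within groups, the members were set against the mean log2 CPM of the skeletal muscle list, as 68 relations in all. None passed Benjamini-Hochberg adjustment (lowest adjusted p 0.0974 for Pearson's r and 0.0598 for Spearman's rho, both from permutation tests). In LOXL2_KO, 30 of 34 members had a positive r, with a median of 0.58, or 0.447 without the 2 libraries farthest from the list's median. In Control, 26 of 34 were positive, with a median of 0.39, or 0.058 without the 2 farthest, so that the Control median rests on those libraries. Not every member followed the median. *Ppara* had r = -0.823 in Control (exact permutation adjusted p = 0.0974) and -0.82 without the 2 farthest. *Acads* had r = 0.781 in Control (exact permutation adjusted p = 0.0974) and 0.676 without them. In LOXL2_KO, *Acsl3* had r = -0.726 (permutation adjusted p = 0.0974) and -0.627 without the 2 farthest. *Ucp3* had r = 0.802 and rho = 0.846 in LOXL2_KO (permutation adjusted p = 0.0974 and 0.0598; r = 0.634 without the 2 farthest) and r = 0.728 and rho = 0.738 in Control (exact permutation adjusted p = 0.153 and 0.133; r = 0.374). *Cpt1a* had negative values, with r = -0.426 and rho = -0.503 in LOXL2_KO (permutation adjusted p = 0.295 and 0.212; r = -0.401) and r = -0.641 and rho = -0.524 in Control (exact permutation adjusted p = 0.187 and 0.318; r = -0.291).

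**Figure D5:**
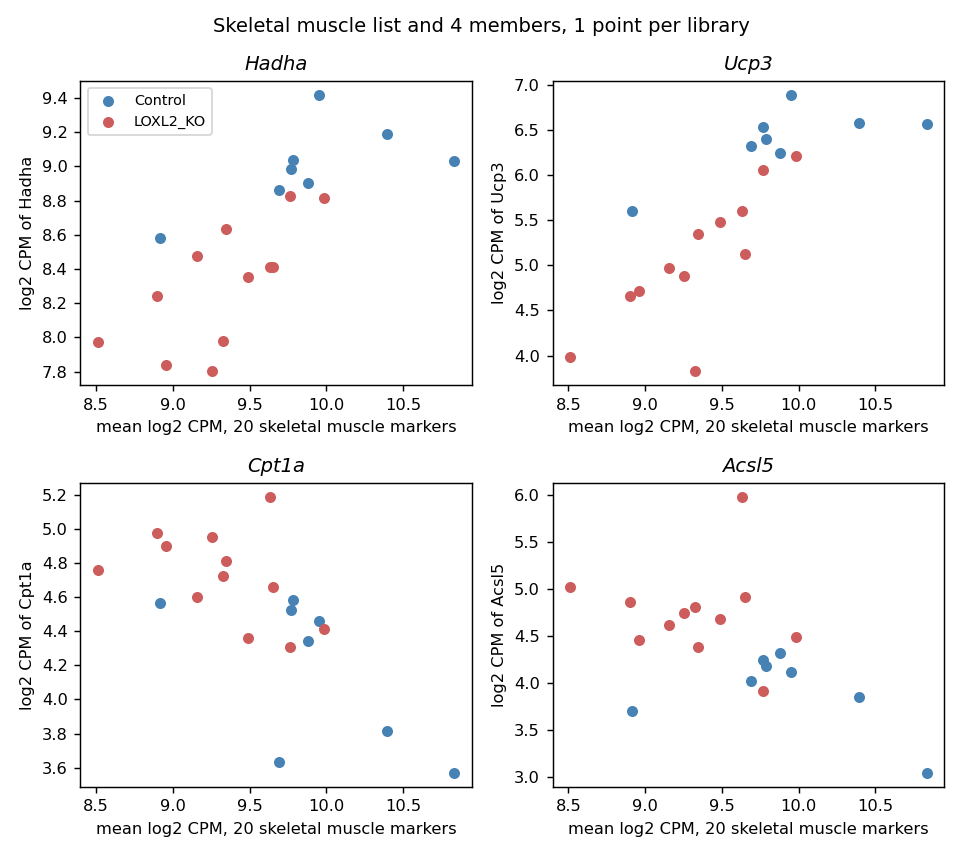
Log2 CPM of *Hadha*, *Ucp3*, *Cpt1a* and *Acsl5* (vertical axes) against the mean log2 CPM of 20 skeletal muscle markers (horizontal axes), 1 point per library, Control in blue and LOXL2_KO in red. The muscle list and the members both differ between the groups, and within a group none of the relations passed adjustment.

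Neighbouring pathways were covered by 6 further lists with 95 genes, of which 89 were tested, 25 fell and 9 rose. Without Control 8, the number called in either direction was 22 in place of 34. Over all tested genes 11% were lower and 12.0% higher, so the share of these neighbours that rose was near the background. Of 17 tested genes listed under peroxisomal oxidation, not all of them confined to peroxisomes, 8 fell and 0 rose by edgeR (1 at an unadjusted p under 0.05, 0 by DESeq2). *Abcd2*, a peroxisomal importer of very long chains, fell from 63.6 ± 26.1 CPM in Control (SD, n = 8) to 33.4 ± 7.68 CPM in LOXL2_KO (SD, n = 12; log2 fold change -0.93, adjusted p = 0.00203 by edgeR). *Crat*, carnitine acetyltransferase, and *Ech1*, a dienoyl-CoA isomerase, both had a log2 fold change of -0.57. Of 12 genes of other mitochondrial oxidation and malonyl-CoA control, 5 fell and 1 rose. *Pdk4*, a kinase that shuts off pyruvate dehydrogenase, fell by 1.04 (330 CPM ± 87.7 to 160 CPM ± 75, adjusted p = 0.00613 by edgeR). *Acacb*, which makes the malonyl-CoA that restrains carnitine palmitoyltransferase 1, fell by 0.66, and *Mlycd*, which removes it, by 0.58. *Ucp2*, the uncoupling protein of immune and many other cells, rose from 67.3 CPM ± 32.5 to 158 CPM ± 73.6 (log2 fold change 1.23, adjusted p = 0.00668 by edgeR), and all 12 LOXL2_KO libraries were above the Control median.

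Of 18 tested genes of lipid delivery, binding and lipolysis, 2 fell and 2 rose, shares near those of all tested genes. *Plin5*, a lipid droplet protein of oxidative tissues, fell by 1.01, and *Vldlr*, a lipoprotein receptor, by 0.46. *Angptl4*, a secreted inhibitor of lipoprotein lipase, rose from 7.28 ± 3.71 CPM in Control (SD, n = 8) to 20.1 ± 11 CPM in LOXL2_KO (SD, n = 12; log2 fold change 1.46, adjusted p = 0.00556 by edgeR). *Lipc*, hepatic lipase, rose by 1.73 from a low level (2.95 CPM ± 3.45 to 9.79 CPM ± 6.34), a call kept in 6 of 20 leave-one-out fits. Of 19 other regulators, 5 fell and 0 rose by edgeR (1 at an unadjusted p under 0.05, 0 by DESeq2). Those lower included *Esrrb*, an estrogen-related receptor (log2 fold change -0.92), *Prkaa2*, the AMP-activated kinase subunit prominent in muscle (-0.80), and *Klf15*, a metabolic transcription factor (-0.69). In ketone body metabolism, *Oxct1* and *Acat1*, which use ketone bodies, fell by 0.56 and 0.49, and *Bdh2* rose by 1.64 from 1.81 CPM ± 0.985, out of 6 genes.

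Fatty acid synthesis and desaturation had 3 genes lower and 5 higher of 17. *Fasn*, fatty acid synthase, rose by 1.64, from 38.1 ± 17.2 CPM in Control (SD, n = 8) to 118 ± 186 CPM in LOXL2_KO (SD, n = 12; adjusted p = 0.03 by edgeR). *Elovl5*, an elongase of polyunsaturated chains, rose by 2.67, from 20.1 CPM ± 5.89 to 127 CPM ± 302 (adjusted p = 0.0199 by edgeR), with all 12 LOXL2_KO libraries above the Control median. Library LOXL2_KO 4 set these sizes: its *Elovl5* value was 1083 CPM against a LOXL2_KO median of 30.8, and its *Fasn* value was 707 CPM against 64.5. Without it the log2 fold changes were 1.01 for *Elovl5* and 0.77 for *Fasn*. *Elovl1*, another elongase, rose by 1.13. *Acss2*, *Mlxipl* and *Mcat*, genes of acetyl-CoA supply, lipogenic transcription and mitochondrial fatty acid synthesis, fell by 0.56, 0.53 and 0.25. Several of the neighbouring genes named were not called without Control 6, Control 8 and LOXL2_KO 5, namely *Fasn* (adjusted p = 0.113 by edgeR), *Elovl5* (0.0605), *Lipc* (0.0752), *Crat* (0.0822), *Klf15* (0.0536), *Vldlr* (0.0517) and *Mcat* (0.205). Scaled by library totals, *Vldlr* (adjusted p = 0.113 by edgeR), *Lipc* (0.0526) and *Mcat* (0.496) were not called. With the muscle list as a covariate, 2 genes of the 6 lists remained called, *Esrrb* and *Acss2*.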

How the data were processed

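RNA was sequenced from 8 Control and 12 LOXL2_KO condylar heads. The authors deposited raw read counts per Ensembl gene, made with featureCounts v1.5.0-p3 on the mouse genome mm10; the aligner, annotation release, strand setting and handling of shared or multiply mapped reads are not given in the sources used here, so genes with overlapping exons are uncertain. Identifiers were matched to GENCODE M21 (54495 of 54532).

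Groups and replicate numbers came from the sample titles. Counts were fitted with edgeR 4.0.16 (R 4.3.3) over all 20 libraries: filterByExpr, TMM scaling, quasi-likelihood F-test, two-sided, Benjamini-Hochberg adjustment over 15984 genes, threshold 0.05. The study's test, the DESeq2 Wald test (1.42.0), was an alternative. SEs come from the F statistic; CPM uses TMM-scaled library sizes and log2 CPM a prior count of 2. A floor of 3 counts is 0.0964 to 0.246 CPM, counting error only. Marker lists were compared over all 125970 assignments of libraries to groups; within-group correlations used 40320 pairings (Control) or 100000 resamples. The 190 pairs of libraries were checked for duplicates, and all differed beyond sampling noise. The procedure was tested on simulated counts.

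Members were named by role, and of each neighbouring list up to 3 called genes per direction with the largest change and a mean of at least 1 CPM; *Loxl2*, chondrocyte markers and overlapping genes were named after values were seen. The members and lists were chosen with earlier results of these data known. Other alternatives were scaling, filters, covariates, a replicate block and leaving out libraries. The labels give no batch and no sex, and nothing was compared within them.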

Additional observations from a re-analysis of the deposited data

Results flagged for a closer look

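Among the 34 members in the Control group, 1 gene had a single library far from the others by Dixon's test on log2 CPM. This was *Acaa2*, the mitochondrial thiolase, whose highest value (391 CPM, in Control 6) was separated from the next by 0.606 of the group's whole range on the log2 scale, above the critical value for 8 samples. On the CPM scale 3 genes passed that value, *Acaa2* (0.682), *Acsl4* (0.585, highest in Control 8) and *Acadvl* (0.55, highest in Control 6). Chance flags about 1 in 20 groups. The LOXL2_KO group, with 12 libraries, was not examined in this way.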

How the results depend on the processing

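Under DESeq2 size factors, library totals, the DESeq2 Wald test, both other filters and the adipocyte list as a covariate, the counts of members called stayed within 1.5 times the reported ones. The muscle list as a covariate left 8 members called (8 lower, 0 higher), 562 of all genes and 2 neighbouring genes. The osteoclast list left 0 members (0 lower, 0 higher), 0 of all genes and 0 neighbouring genes, with a members' median of -0.35. Both lists differ between the groups, so these fits also remove part of the group difference. With each library left out in turn, the members called ran from 22 to 29 (20 to 27 lower, 2 higher each time), all genes from 2551 to 4181, neighbouring genes from 22 to 40, the latter lowest without Control 8, and the median from -0.68 to -0.55. With the 3 libraries low in chondrocyte markers left out, 2336 of all genes and 20 neighbouring genes were called.

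Same-numbered libraries did not deviate together (correlations from -0.36 to 0.168 over 8 pairs), so the numbers were not taken as pairs. With the number as a replicate block in 16 libraries, 22 members were called lower and 1 higher, with 1786 of all genes and 19 neighbouring genes called. The same 16 without the block gave 26 members lower and 2 higher, with 3280 of all genes and 31 neighbouring genes called.

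Signs changed in a few estimates, some of them near 0 or of low level. *Acsl3* was 0.13 with library totals, -0.0886 to 0.0819 with each library left out, and 0.0135 without the 3 libraries low in chondrocyte markers. *Acaa1a* ran from -0.0241 to 0.0698 with each library left out. With the osteoclast list, *Acsl4* was 0.20 (-0.34 with no covariate), *Lipc* -0.12, *Bdh2* -0.50 and *Mlxipl* 0.0712. With no covariate, *Lipc* and *Bdh2* were called higher and *Mlxipl* lower. The endothelial list differed by 0.0408 with library totals. The cause was not tested.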
